A study of Mus musculus with 9 samples.

Results

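Chemokines that guide lymphocytes, and the receptors that read them, were followed in 4T1 primary tumors of mice treated with the FAK inhibitor BI 853520, abbreviated BI. The group comprised the ligands Cxcl9, Cxcl10, Cxcl11, Cxcl13, Ccl19 and Cxcl12 and the receptors Cxcr3, Cxcr5, Ccr7 and Cxcr4. These 10 genes were set by name, with no threshold on their values but with earlier results of these data known, and were matched by Entrez identifier. A row of counts was found for 9 of the 10 among the 18755 genes of the table, and Ccl19 was not analysed here. All 9 passed the filter on low counts that left 13966 genes for testing.

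4T1 is a murine metastatic breast cancer cell line of BALB/c origin, and 1000000 cells were injected into a mammary fat pad of female BALB/c mice aged 6 to 10 weeks, so that the hosts kept their lymphocytes. From day 15 after injection, for 5 days, 6 mice received 50 mg/kg BI daily by oral gavage (tumors 4 to 9) and 3 mice received the 0.5% Natrosol vehicle (tumors 1 to 3). The methods give the same vehicle as the solvent of BI, and all hosts carried the same tumor cells. The tumor label was checked on 7 epithelial markers, whose summed level, most of it Krt8 and Krt18, was 956 to 1180 CPM with vehicle and 749 to 959 CPM with BI, with 0 of 7 higher and 2 of 7 lower. Each library came from a piece of a different tumor, and the total counts lay between 16931607 and 33850245 per tumor, so that 3 counts corresponded to 0.0884 to 0.174 CPM (counts scaled to a library of 1000000). All levels below are CPM after TMM scaling, given as mean ± SD, and the intervals of fold changes are 95% intervals from the fit.

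Chemokines are small secreted proteins that bind G protein-coupled receptors on leukocytes and direct their migration. CXCL9, CXCL10 and CXCL11 are induced by interferon gamma and share the receptor CXCR3 of activated T cells and natural killer (NK) cells. CXCL13 draws CXCR5-bearing B cells and follicular helper T cells, CCL19 draws CCR7-bearing naive T cells and mature dendritic cells, and CXCL12 of stromal cells binds CXCR4, which many leukocytes and tumor cells carry. CXCL9, CXCL10 and CXCL11 are encoded side by side on mouse chromosome 5, and Cxcl13 lies on the same chromosome.

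After BI, the mRNAs of Cxcl9, Cxcr3, Cxcl13 and Ccr7 rose, none of the 9 genes fell, and Cxcl10, Cxcl11, Cxcr5, Cxcl12 and Cxcr4 did not pass the test. With the quasi-likelihood F test of edgeR and Benjamini-Hochberg adjustment over all genes tested, a call at an adjusted p of at most 0.05 was made as higher for 4 of 9 members, against 14.6% of all genes tested, and as lower for 0 of 9, against 14.1%. At an unadjusted p of at most 0.05 edgeR and limma-voom still gave 4 higher and 0 lower, and DESeq2 gave 5 higher and 0 lower. All 6 BI tumors lay above all 3 vehicle tumors for the same 4 members, against 14.1% of all genes, and below them for 0 members, against 14%. The median log2 fold change of the 9 was 0.35, within a range of 0.13 to 3.05, and that of all genes tested was -0.0037. These are bulk tumor pieces, in which a change in the number of cells of a type and a change in RNA per cell cannot be told apart.

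**Figure D1:**
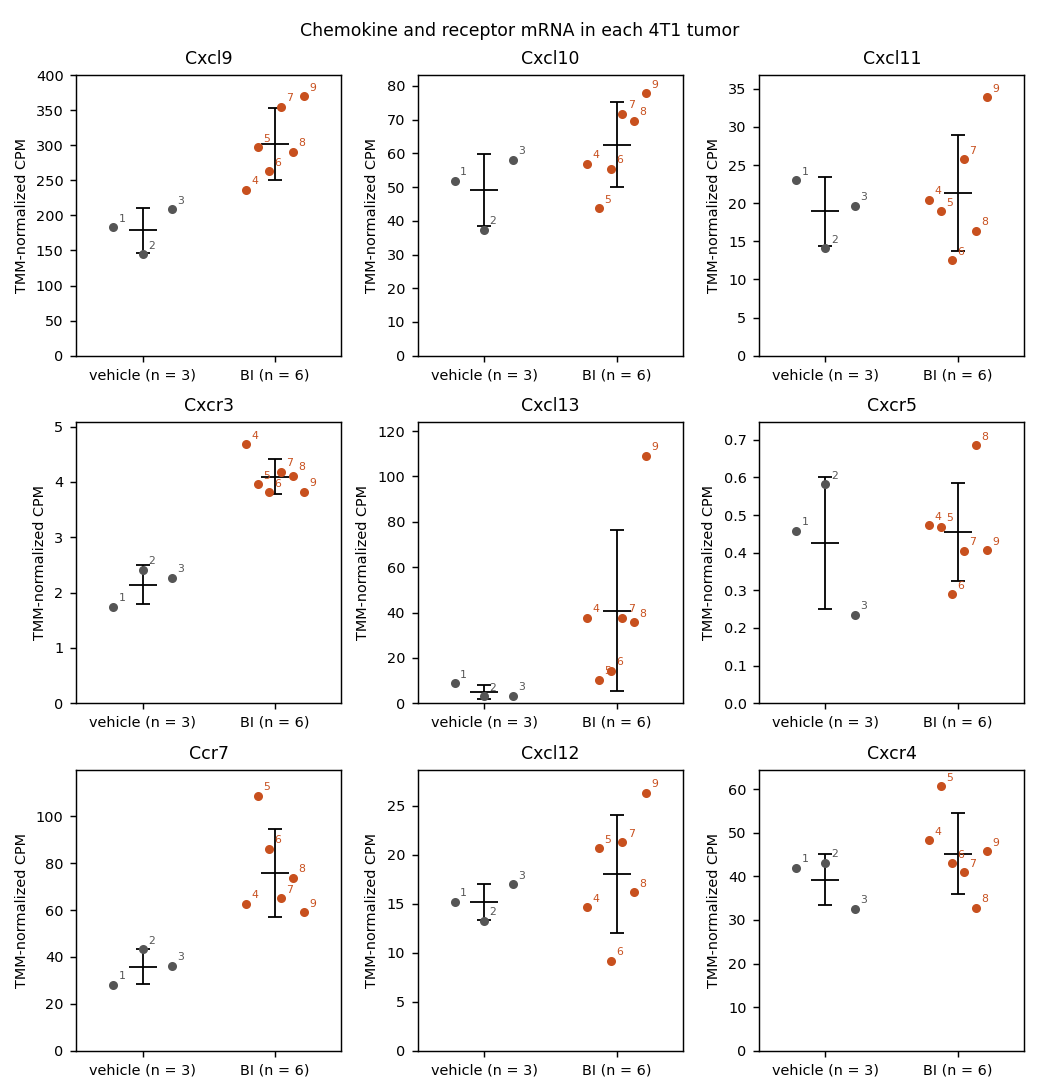
Level of each chemokine or receptor mRNA in each tumor, in TMM-normalized CPM on a linear axis from 0. Grey points are the 3 vehicle tumors and orange points the 6 BI tumors, numbered as in the text, and the horizontal mark with its bar is the mean ± SD. For Cxcl9, Cxcr3, Cxcl13 and Ccr7 the groups are separate, and for the other 5 genes they overlap.

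The promoters of 3 ligands are shown: those of Cxcl13 and Cxcl9, which rose, and that of Cxcl10, the neighbor of Cxcl9 and a fellow CXCR3 ligand, which did not pass the test. Each line gives the 250 bases before the RefSeq start site, 5′ to 3′ on the strand of the gene, from assembly GRCm38.p6, which is not the build of the counts. The windows are chr5:92328080-92328329 (minus strand), chr5:92348890-92349139 (minus strand) and chr5:95956689-95956938 (plus strand). Capitals mark matches to the letters searched.
Cxcl9: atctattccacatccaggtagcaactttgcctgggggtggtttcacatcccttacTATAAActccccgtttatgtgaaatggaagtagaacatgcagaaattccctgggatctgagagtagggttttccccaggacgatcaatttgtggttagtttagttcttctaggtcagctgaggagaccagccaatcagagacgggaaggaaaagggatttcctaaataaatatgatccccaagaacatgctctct
Cxcl10: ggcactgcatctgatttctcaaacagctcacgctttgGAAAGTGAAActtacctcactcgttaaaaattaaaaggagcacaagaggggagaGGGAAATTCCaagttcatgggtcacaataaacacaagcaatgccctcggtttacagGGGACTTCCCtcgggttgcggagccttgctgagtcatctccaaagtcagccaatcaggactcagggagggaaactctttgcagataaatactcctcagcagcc
Cxcl13: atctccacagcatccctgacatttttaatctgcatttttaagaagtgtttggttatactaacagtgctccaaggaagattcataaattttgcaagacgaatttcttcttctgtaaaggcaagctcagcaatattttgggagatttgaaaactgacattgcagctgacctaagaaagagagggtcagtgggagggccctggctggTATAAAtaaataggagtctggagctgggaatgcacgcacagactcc
Both strands were searched, from 250 bases before to 50 bases after the start, for 4 motifs: the interferon-stimulated response element core GAAANNGAAA, the gamma-activated site TTCNNNGAA, the NF-kappaB motif by name, and TATAAA. In Cxcl10 the capitals are 1 interferon-stimulated response element core, from -213 to -204, and a pair of NF-kappaB motifs, from -159 to -150 and from -103 to -94. In Cxcl9 and Cxcl13 they are TATAAA, from -195 to -190 and from -46 to -41. Among 32851 promoter windows of this length, 3.44% held the response element core, 4.51% the NF-kappaB motif, 8.3% the gamma-activated site and 13.6% TATAAA. Promoters of 7 of the 10 genes were found in the table, and the gamma-activated site letters matched in none of the 7. The Ccl19 promoter held a response element core from -208 to -199, and that of Cxcr4 held overlapping TATAAA matches on both strands. These are matches of letters within the windows searched, and no binding was measured. Looser or shorter forms of the 4 motifs were not searched, so a lack of capitals does not show that a promoter has no such site.

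Cxcl9, the first of the CXCR3 ligands, was the most abundant chemokine of the group. Its gene (Entrez 17329) lies at chr5:92750357-92757105 of mm9 on the minus strand. The vehicle tumors held 183, 145 and 208 CPM, and the BI tumors ranged from 237 over a median of 294 to 370 CPM. Every BI tumor was above every vehicle tumor. The means were 179 ± 32.0 (n = 3) and 302 ± 51.6 (n = 6), a 1.69-fold rise with a log2 fold change of 0.76 (SE 0.149, 95% interval 0.43 to 1.08, edgeR adjusted p = 0.0031).

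Cxcl10 (Entrez 15945, mm9 chr5:92775664-92777915, minus strand) did not separate the groups. Its levels were 51.8, 37.4 and 58.1 CPM in the vehicle tumors, and 43.8 to 77.8 with a median of 63.3 CPM in the BI tumors, of which 3 of 6 lay above all vehicle tumors. The log2 fold change was 0.35 (95% interval -0.03 to 0.73, edgeR adjusted p = 0.158), so that the interval held no change as well as a rise close to that of Cxcl9. Without BI tumor 5, its lowest BI value, the log2 fold change was 0.43 and the edgeR adjusted p 0.0496. 1 exon of Cxcl10 overlaps an exon of Art3, a gene of the ADP-ribosyltransferase family on the opposite strand, and whether reads were counted by strand is not given in the sources used here. Art3 itself was at 2.00 ± 0.723 CPM (n = 3) with vehicle and 2.81 ± 1.33 CPM (n = 6) with BI (edgeR adjusted p = 0.385), far below Cxcl10.

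Cxcl11 (Entrez 56066, mm9 chr5:92788570-92794511, minus strand) was the least abundant of these ligands. The vehicle tumors held 23.0, 14.1 and 19.7 CPM, and the BI tumors ranged from 12.6 over a median of 19.7 to 33.9 CPM, both below and above the vehicle tumors. Its log2 fold change of 0.17 had an interval of -0.39 to 0.74 (edgeR adjusted p = 0.656), and was -0.0048 without BI tumor 9. Cxcl11 lies within the span of Art3 and shares exon sequence with a pseudogene on the other strand, Gm2673, so that its counts carry the same limit of strand.

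Cxcr3 (Entrez 12766, mm9 chrX:98926874-98929608, minus strand), the receptor of these ligands, rose 1.91-fold. Its levels were 1.74, 2.42 and 2.27 CPM in the vehicle tumors and 3.82 to 4.68 CPM, with a median of 4.04, in the BI tumors. Of the 4 genes that rose it had the least spread among BI tumors relative to its mean, with means of 2.14 ± 0.354 (n = 3) and 4.10 ± 0.321 (n = 6). The log2 fold change was 0.93 (SE 0.162, 95% interval 0.58 to 1.28, edgeR adjusted p = 0.00148), from 38 to 99 counts per tumor.

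Markers of cells that carry CXCR3 were higher as well. Of 14 T cell markers 13 rose, and their summed level was 184 to 213 CPM with vehicle and 314 to 409 CPM with BI. Of 7 NK cell markers 6 rose, and their sum was 30.3 to 40.5 CPM with vehicle and 77.8 to 97.3 CPM with BI. Macrophages, a known source of CXCL9, had 8 of 9 markers higher, with sums of 1659 to 2239 CPM and 3276 to 4089 CPM. The part of these cells in the values of Cxcl9 and Cxcr3 was not tested.

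Whether the ligands responded alike was asked within each tumor, from 7 log2 ratios of member CPM compared by a two-sided exact permutation test over the 84 divisions of 9 tumors into 3 and 6. The smallest p this design allows is 0.0119, and adjustment was over the 7 ratios. The ratio of Cxcl9 to Cxcl10 was 1.87 ± 0.070 on the log2 scale with vehicle (n = 3) and 2.28 ± 0.258 with BI (n = 6), higher in 6 of 6 BI tumors than in any vehicle tumor. This difference of 0.41 had an exact permutation p of 0.0476 and an adjusted p of 0.111. The ratio of Cxcl9 to Cxcl11 differed by 0.63, also above all vehicle tumors in 6 of 6 BI tumors, with an exact permutation p of 0.0357 and an adjusted p of 0.111. Thus neither shift toward Cxcl9 passed the adjustment, and the calls for Cxcl9 and Cxcl10 alone do not show that these genes differed in response. The ratio of Cxcl10 to Cxcl11 differed by 0.22 (exact permutation adjusted p = 0.611).

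Against their receptor the ligands showed no shift that passed. The log2 ratio of Cxcl9 to Cxcr3 differed by -0.16, BI minus vehicle (exact permutation adjusted p = 0.611), and that of Cxcl10 to Cxcr3 differed by -0.57 (exact permutation adjusted p = 0.146), below all vehicle tumors in 3 of 6 BI tumors.

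**Figure D2:**
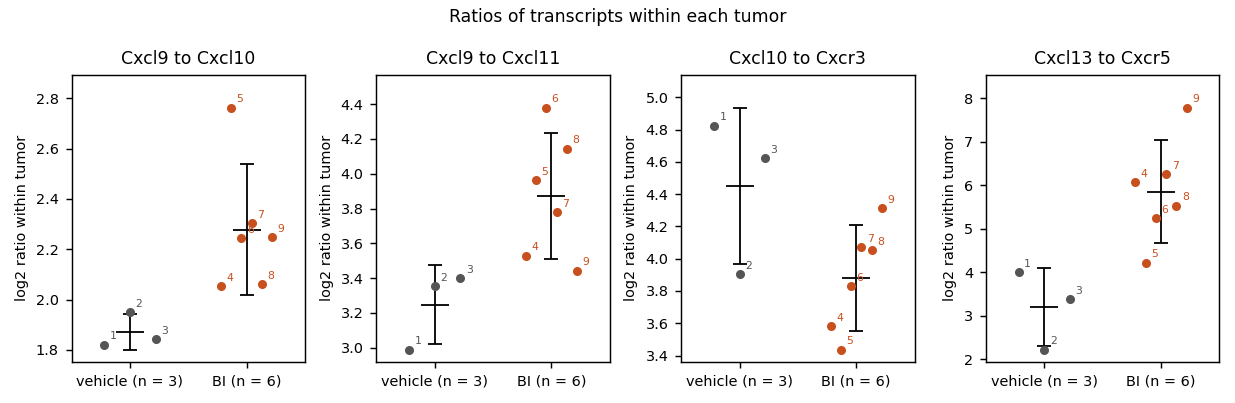
Log2 ratio of 2 transcripts within each tumor, for the 4 ratios with the smallest p of the 7 tested. Grey points are vehicle tumors, orange points BI tumors, marks with bars are the mean ± SD, and the axes do not start at 0. All BI tumors lie above all vehicle tumors for Cxcl9 to Cxcl10, Cxcl9 to Cxcl11 and Cxcl13 to Cxcr5, and the adjusted p of all 4 was above 0.05.

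Cxcl13, the follicular chemokine, showed the largest and the most uneven rise of the group. Its gene (Entrez 55985) lies at chr5:96385945-96390086 of mm9 on the plus strand. The vehicle tumors held 8.71, 3.04 and 3.33 CPM. The BI tumors held 37.8, 10.4, 14.4, 37.7, 35.7 and 109 CPM, in the order of tumors 4 to 9. Tumors 5 and 6 were close to the highest vehicle tumor, tumors 4, 7 and 8 were alike, and tumor 9 stood apart. The means of 5.03 ± 3.19 (n = 3) and 40.9 ± 35.6 (n = 6) gave an 8.26-fold rise, with a log2 fold change of 3.05 (SE 0.722, 95% interval 1.47 to 4.62, edgeR adjusted p = 0.00877).

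The size of this rise depended on single tumors. Without BI tumor 9 it was 5.51-fold (edgeR adjusted p = 0.00515), and without vehicle tumor 1 it was 12.7-fold. The call was lost without vehicle tumor 3, at a log2 fold change of 2.79 and an edgeR adjusted p of 0.0502.

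Cxcr5 (Entrez 12145, mm9 chr9:44319871-44334504, minus strand), the receptor of CXCL13, stayed near the limit of detection in both groups. Only 6 to 13 counts were found per tumor. The levels were 0.458, 0.582 and 0.236 CPM with vehicle and 0.290 to 0.685 CPM, with a median of 0.438, with BI. The groups overlapped, with a log2 fold change of 0.13 and a wide interval of -0.70 to 0.97 (edgeR adjusted p = 0.824), and the sign turned to -0.20 without vehicle tumor 3. A change as large as that of Cxcr3 was therefore inside the interval and not detectable at this depth.

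The log2 ratio of Cxcl13 to Cxcr5 was 3.20 ± 0.905 with vehicle (n = 3) and 5.85 ± 1.19 with BI (n = 6). All 6 BI tumors were above all vehicle tumors. The exact permutation p of 0.0119 was the smallest the design allows, and its adjusted p was 0.0833.

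Markers of the cells that this ligand and receptor serve gave the following values. Of 10 B cell markers 7 were tested and 3 rose, with summed levels of 9.89 to 12.5 CPM with vehicle and 14 to 24.1 CPM with BI. Of 13 markers of lymph node stroma, follicles and high endothelium, 11 had a row and 5 were tested. Bst1 of stromal cells was higher, at 67.3 against 53.0 CPM (edgeR adjusted p = 0.0031), and Fut7, Grem1, Il7 and Tnfsf11 did not pass. The defining markers Fcer2a of follicular dendritic cells and B cells, and Madcam1, Glycam1 and Chst4 of high endothelium, had at most 3 counts in any tumor, and Cr2 and Coch were below the filter. The summed level of this list was 78.2 to 86.0 CPM with vehicle and 80.4 to 104 CPM with BI.

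Markers of other stroma are given beside Cxcl13 for the BI tumors. The 9 fibroblast markers summed to 5122, 3438, 2616, 5092, 4003 and 5769 CPM in tumors 4 to 9, lowest in tumors 5 and 6 and highest in tumor 9, as Cxcl13 was lowest and highest. With vehicle the sum was 1926 to 3341 CPM, and 2 of the 9 fibroblast markers rose in the test. The 7 adipocyte markers summed to 40.4 to 71.4 CPM with vehicle and 62.7 to 351 CPM with BI, and 0 of the 7 passed edgeR's test. In the order of tumors 4 to 9 the adipocyte sums were 71.4, 172, 62.7, 86.1, 106 and 351 CPM, highest in tumor 9 like Cxcl13, but second highest in tumor 5, where Cxcl13 was lowest of the BI tumors. Being highest in tumor 9 was not particular to these lists. Among the BI tumors it was also highest in the T cell sum (409 CPM) and the lymph node list sum (104 CPM). The same held for Cxcl9, Cxcl10, Cxcl11 and Cxcl12, whereas the NK cell sum was lowest there (77.8 CPM). The part of fibroblasts and adipocytes in the Cxcl13 values was not tested.

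**Figure D3:**
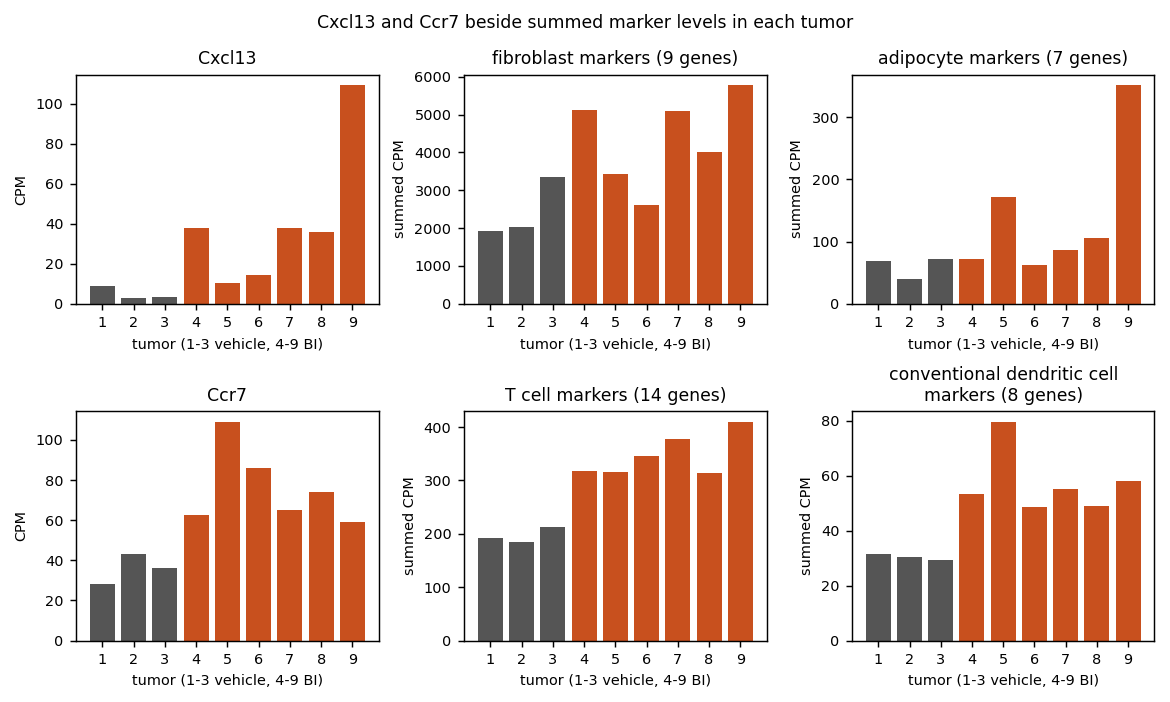
Bars from 0 give the level in each tumor, 1 to 3 with vehicle in grey and 4 to 9 with BI in orange. The upper row shows Cxcl13 in CPM and the summed CPM of 9 fibroblast and 7 adipocyte markers, all 3 highest in tumor 9. The lower row shows Ccr7 and the summed CPM of 14 T cell and 8 conventional dendritic cell markers. Here Ccr7 and the dendritic cell sum are highest in tumor 5, and the T cell sum is highest in tumor 9.

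Ccr7 (Entrez 12775, mm9 chr11:99005510-99016391, minus strand), which guides naive T cells and mature dendritic cells to lymph nodes, rose 2.11-fold. The vehicle tumors held 28.2, 43.2 and 36.3 CPM, and the BI tumors ranged from 59.2 over a median of 69.4 to 109 CPM. No BI tumor reached down to the vehicle tumors, and tumor 5 was the highest. The means were 35.9 ± 7.52 (n = 3) and 75.9 ± 18.8 (n = 6), with a log2 fold change of 1.08 (SE 0.194, 95% interval 0.66 to 1.5, edgeR adjusted p = 0.00183).

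Tumor 5 was also highest in the summed level of 8 conventional dendritic cell markers, at 79.5 CPM. Its T cell sum, at 316 CPM, was near the lower end of the BI tumors, which held 314 to 409 CPM. The list as a whole had 7 of 8 genes higher, and sums of 29.3 to 31.4 CPM with vehicle and 48.6 to 79.5 CPM with BI. Of 10 markers of migratory or mature dendritic cells 4 rose, Cd83, Flt3, Cd40 and Ccl5, and 1 fell, Fscn1. Fscn1 can be expressed by tumor cells as well, and Flt3 was also among the 8 conventional dendritic cell markers. Of the same 10, Ccl22, Ccl17, Il4i1, Cacnb3 and Socs2 did not pass the test (all named after their values were seen). The sum of this list, most of it Fscn1, was 535 to 588 CPM with vehicle and 413 to 507 CPM with BI. Among the BI tumors, tumor 5 had the lowest sum of this list and the lowest Fscn1. Of the same list Cd83, Flt3 and Ccl5 were highest in tumor 5, and the rest were not. The part of dendritic cells and T cells in the Ccr7 values was not tested, and neither CCR7 ligand, CCL19 or CCL21, was analysed here.

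Cxcl12 (Entrez 20315, mm9 chr6:117118553-117131385, plus strand), the stromal chemokine known for retaining hematopoietic cells in bone marrow, was at 15.2, 13.3 and 17.0 CPM in the vehicle tumors. The BI tumors spread on both sides of these, from 9.18 over a median of 18.4 to 26.3 CPM. Its log2 fold change of 0.24 had an interval of -0.30 to 0.78 (edgeR adjusted p = 0.492). Its lowest value was in tumor 6 and its highest in tumor 9, which were also the tumors with the lowest and highest fibroblast marker sums among those given BI.

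Cxcr4 (Entrez 12767, mm9 chr1:130484776-130488870, minus strand), the receptor of CXCL12, was at 41.9, 43.1 and 32.6 CPM with vehicle and at 32.8 to 60.6 CPM, with a median of 44.4, with BI. The groups overlapped over most of their range. The log2 fold change was 0.21 (95% interval -0.13 to 0.55, edgeR adjusted p = 0.346), an interval that leaves out a rise as large as the 1.91-fold estimate for Cxcr3. The log2 ratio of Cxcl12 to Cxcr4 differed by -0.01 between the groups (exact permutation adjusted p = 0.952).

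Per kilobase of gene length the order of levels within the vehicle tumors was Cxcl9 (61.6 CPM per kilobase), Cxcl10 (44.6), Cxcr4 (21.6), Ccr7 (18.2), Cxcl11 (11.8), Cxcl13 (4.33), Cxcl12 (2.12), Cxcr3 (1.33) and Cxcr5 (0.163). The ranges of Cxcl9 and Cxcl10, of Cxcr4 and Ccr7, and of Ccr7 and Cxcl11 overlapped, and the other neighbors in this order did not. With BI the means per kilobase were 104 for Cxcl9, 56.9 for Cxcl10, 38.45 for Ccr7, 35.2 for Cxcl13, 24.9 for Cxcr4, 13.3 for Cxcl11, 2.55 for Cxcr3, 2.52 for Cxcl12 and 0.174 for Cxcr5. Here the ranges of Cxcl9 and Cxcl10 were apart, as were those of Cxcl11 and Cxcr3 and of Cxcl12 and Cxcr5, and all other neighbors overlapped. Cxcl13 thus stood below Cxcl11 per kilobase in the vehicle order and above Cxcr4 by its mean, but not by its range, in the BI order.

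Among the 6 BI tumors no pair of ligand and receptor passed a test of correlation. Over 4 pairs, with exact permutation p-values adjusted over the pairs, Pearson's r of log2 CPM was -0.50 for Cxcl9 and Cxcr3 (exact permutation p = 0.317), with a Spearman's rho of -0.26 (exact permutation p = 0.658). For Cxcl13 and Cxcr5 r was 0.17 (exact permutation p = 0.807) and rho 0.086 (exact permutation p = 0.919). For Cxcl12 and Cxcr4 r was 0.21 (exact permutation p = 0.696) and rho 0.029 (exact permutation p = 1), and for Cxcl10 and Cxcr3 r was -0.05 (exact permutation p = 0.908) and rho 0.14 (exact permutation p = 0.803). The adjusted p was 0.908 for each r and 1 for each rho. Without the 2 tumors farthest from the median of the ligand, r was 0.85 for Cxcl9 and Cxcr3 and -0.04 for Cxcl10 and Cxcr3. It was 0.74 for Cxcl13 and Cxcr5 and 0.31 for Cxcl12 and Cxcr4, and each of these values rests on few tumors. For Cxcl9 and Cxcr3 the sign turned without BI tumor 4 alone (r = 0.21). With any other single BI tumor left out it stayed negative (-0.79 to -0.34).

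The genes most like each member over the 9 tumors, after the group means had been subtracted from log2 CPM, were found among 12186 genes. For Cxcl13 these were Cdca3 (r = 0.986), S100a4 (0.984) and Acat1 (0.976), for Ccr7 Phkb (0.987), Ankrd9 (0.974) and Dop1b (0.967), and for Cxcl10 Clspn (0.983), Haus3 (0.970) and Pou2f2 (0.966). The nearest to Cxcl9 were Ints9 (0.942), Aplnr (0.927) and Ubash3a (0.912), and those nearest to Cxcr3 were Gm10825 (0.954), Rps7 (0.949) and Rps15a-ps4 (0.937). No other member was among the 3 nearest genes of any member. For Cxcl11 these were Pros1 (0.960), Sema5a (0.959) and Sptlc2 (0.957), for Cxcr5 Zbtb7c (0.968), Mgat4b (0.943) and Ggn (0.922), for Cxcl12 Ube2ql1 (0.973), Ubd (0.933) and Tshz2 (0.927), and for Cxcr4 Abcd4 (0.950), Hoxd4 (0.946) and Nhlrc3 (0.938). The values are highest of many and are given as a description, with no test.

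Other genes of these pathways were read from 5 lists with 101 entries, of which 93 were tested. Of these 37 were higher after BI, 7 lower and 49 neither, beside 14.6% higher and 14.1% lower of all genes tested.

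Among 17 other chemokines and receptors of lymphocytes, 7 rose and 1 fell, with a median log2 fold change of 0.43. Cxcr6, a receptor of tissue-resident and effector T cells, rose from 8.20 ± 1.40 to 18.4 ± 3.69 CPM (log2 fold change 1.16, edgeR adjusted p = 0.000648). The gene that fell was Ackr3, the scavenging receptor that removes CXCL12 and CXCL11. It was 15.5 ± 0.613 CPM with vehicle and 8.43 ± 0.860 CPM with BI (log2 fold change -0.88, edgeR adjusted p = 0.000112), in a setting where Cxcl12 itself did not pass the test.

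Of 15 genes of the interferon gamma pathway, which induces the CXCR3 ligands, 6 rose and 1 fell, with a median of 0.19. Tbx21, the transcription factor of type 1 T cells that also drives Cxcr3, rose from 1.46 ± 0.126 to 4.43 ± 1.00 CPM (log2 fold change 1.60, edgeR adjusted p = 0.000339). Ifngr1, a chain of the interferon gamma receptor, rose by a log2 fold change of 0.51 (edgeR adjusted p = 0.0012), and Jak2, its kinase, fell by 0.41 on the log2 scale (edgeR adjusted p = 0.00102). Ifng itself, named here after its value was seen, rose from 2.63 to 4.98 CPM (log2 fold change 0.91, edgeR adjusted p = 0.0183).

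Of 16 genes of the lymphotoxin and TNF family pathway, which induces Cxcl13 and Ccl19 in lymphoid stroma, 3 rose and 1 fell, with a median of 0.28, and the count of 3 higher is near the share over all genes. Ltb, a subunit of lymphotoxin, rose from 7.22 ± 0.813 to 13.5 ± 2.58 CPM (log2 fold change 0.90, edgeR adjusted p = 0.00174). The receptors Tnfrsf1a and Tnfrsf11a rose by log2 fold changes of 0.27 (edgeR adjusted p = 0.0047) and 0.49 (edgeR adjusted p = 0.0104). The gene that fell was Nfkb2, named here after its value was seen (log2 fold change -0.23, edgeR adjusted p = 0.0199). The most abundant gene, Tnfrsf1b, had a log2 fold change of 0.29 (edgeR adjusted p = 0.0827).

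Of 10 genes for the scavenging, presentation and cleavage of chemokines, 1 rose and 2 fell, with a median of -0.22. Both counts are near the shares over all genes tested, 14.6% higher and 14.1% lower. Dpp4, the protease that trims and inactivates CXCL9, CXCL10, CXCL11 and CXCL12, rose from 6.09 ± 0.321 to 12.5 ± 2.49 CPM (log2 fold change 1.03, edgeR adjusted p = 0.00118). Sdc4, a heparan sulfate proteoglycan, and Ext1, which elongates heparan sulfate, fell by 0.54 (edgeR adjusted p = 0.00047) and 0.24 (edgeR adjusted p = 0.0256) on the log2 scale.

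Of 35 genes of signaling downstream of chemokine receptors and of migration, 20 rose and 2 fell, with a median of 0.48. The smallest p-values were those of Pik3cg, the phosphoinositide 3-kinase activated by chemokine receptors, with a log2 fold change of 0.88 (edgeR adjusted p = 4.04e-05), Fermt3, the integrin activator kindlin-3, with 0.95 (edgeR adjusted p = 4.17e-05) and the G protein subunit gene Gng2, with 0.92 (edgeR adjusted p = 4.17e-05). Gnai2, the most abundant, had 0.11 (edgeR adjusted p = 0.177). Most genes of this list are used by leukocytes in general, and macrophage, T cell and NK cell markers rose in the same tumors, as given above. 6 of 8 neutrophil markers fell, with sums of 579 to 820 CPM with vehicle and 247 to 414 CPM with BI. Of the remaining marker lists, 3 of 8 endothelial, 2 of 4 plasma cell and 0 of 5 skeletal muscle markers tested rose. None of these markers fell, beside 14.6% higher and 14.1% lower of all genes tested. The plasma cell markers that rose were Irf4 and Xbp1, and Jchain and Mzb1 did not pass the test. Tnfrsf17 and Derl3 were below the filter (all named after their values were seen). The part of each cell type in these counts was not tested.

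**Figure D4:**
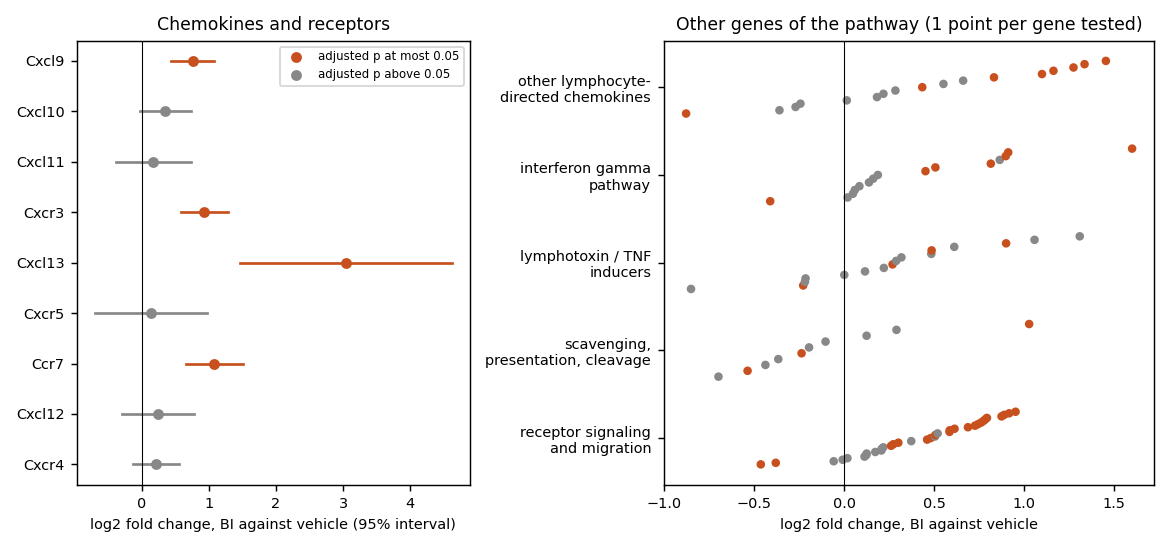
Log2 fold change of BI against vehicle from edgeR, on the left for the 9 chemokines and receptors with their 95% intervals and on the right for the 93 other genes of the pathway tested, 1 point per gene, arranged by size within each of 5 lists. Orange marks an adjusted p of at most 0.05 and grey a larger one, and the vertical line is no change. The 4 members that rose and the 5 that did not pass lie right of 0, and the interval of Cxcl13 is the widest.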

How the data were processed

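RNA was sequenced from pieces of 9 snap-frozen 4T1 tumors, 3 from vehicle-treated and 6 from BI-treated mice, after stranded mRNA library preparation. The authors aligned paired-end reads with STAR to mm9, kept unique hits, and used QuasR to assign a read to a RefSeq gene when its first base fell in an exon. They deposited unnormalized counts for 18755 genes, with gene lengths. The study kept for its further analysis only tumors whose RNA quality sufficed. Whether strand entered the counting is not given in the sources used here. Reads with several alignments were dropped, which lowers genes with near-identical copies.

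Counts were tested with edgeR 4.0.16 (limma 3.58.1, R 4.3.3): TMM scaling, filterByExpr (min.count 10, min.total.count 15), and the quasi-likelihood F test without covariates. Benjamini-Hochberg adjustment was over 13966 genes, and calls were made at an adjusted p of at most 0.05. The tests were checked on simulated data. Log2 CPM for ratios and correlations used a prior count of 2. Positions came from a GENCODE annotation of mm9, symbols from RefSeq (18700 of 18755 genes), and promoters from RefSeq on GRCm38.p6. Ccl19 and the Ccl21 genes were not analysed here, which left 7 of the ratios and 4 of the pairs that had been planned.

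The 10 members and all gene lists were chosen with earlier results of these data known. Besides the members, the text names up to 3 called genes with the smallest p and the most abundant gene of each pathway list, lymph node markers, genes at 3 counts or fewer in all tumors, the 3 genes most like a member, and genes whose exons overlap one. A few genes so chosen are left out of the text. The alternatives tried were RLE scaling as in DESeq2, scaling by library size, no low count filter or 1 CPM in 3 tumors, DESeq2 1.42.0, limma-voom, a prior count of 0.5, the study's thresholds, and leaving out each tumor in turn. The libraries differed from each other beyond counting noise, with a mean chi-square per gene of 8.48 to 28.5 within groups and 32.4 to 75.7 between them.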

Additional observations from a re-analysis of the deposited data

Results flagged for a closer look

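Across the 6 BI tumors, 30 sets of values were examined for a tumor that stood far from the others, by the gap to its nearest neighbor over the whole range, with a limit of 0.625 for 6 samples. For normally distributed values chance gives such a value in about 1 of 20 groups. Levels were taken as CPM on the linear scale and the 30 sets share the same tumors, so that rate need not hold here. Cxcl13 in BI tumor 9 was 109 CPM, with a gap of 0.722 of the range. The log2 ratio of Cxcl9 to Cxcl10 in BI tumor 5 was 2.76, with a gap of 0.647. The summed level of conventional dendritic cell markers in BI tumor 5 was 79.5 CPM, with a gap of 0.696. The summed level of the lymph node stroma, follicle and high endothelium markers in BI tumor 6 was 80.4 CPM, below the other BI tumors, with a gap of 0.681.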

How the results depend on the processing

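The 9 members were called alike under RLE or library size scaling, no low count filter, a filter of 1 CPM in 3 tumors, DESeq2 and limma-voom, with 4 higher and 0 lower in each, except that Cxcr5 was not tested under the filter of 1 CPM, and with a tumor left out 3 to 5 were higher and 0 lower. The call for Cxcl13 was lost without vehicle tumor 3 (log2 fold change 2.79), and Cxcl10 was called without BI tumor 5 (0.43). Cxcl11 without BI tumor 9 (-0.0048, range -0.0048 to 0.33 over tumors left out) and Cxcr5 without vehicle tumor 3 (-0.20, range -0.20 to 0.43) changed sign, and Cxcr5 fell below the low count filter and gave no value without BI tumor 4 or BI tumor 8. With a tumor left out, genes called over the whole table ranged from 1332 to 2026 higher and from 1172 to 1980 lower, the other genes of the pathway called higher from 29 to 39, and those called lower from 4 to 7. At the study's thresholds, which set limits on the unadjusted p and on the size of the fold change, there were 1339 genes higher and 499 lower, and 3 of the other pathway genes lower. The log2 ratio differences ranged from -0.39 to 0.00052 for Cxcl9 to Cxcr3 and from -0.18 to 0.20 for Cxcl12 to Cxcr4 with a tumor left out. The correlations ranged from -0.79 to 0.21 for Cxcl9 and Cxcr3, from -0.33 to 0.24 for Cxcl10 and Cxcr3 and from -0.23 to 0.43 for Cxcl13 and Cxcr5. The causes were not tested. With 3 vehicle tumors and few counts of Cxcr5, the intervals allow sizeable changes in the genes that did not pass. The groups were different mice and the sources used here give no pairing between them, so no paired analysis was made.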
